A study of Mus musculus with 6 samples.

Results

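Proteasome genes other than the inducible catalytic subunits were examined in colorectal tissue of colitis mice receiving berberine (BBR) or sulfasalazine (SASP). Members were the rows of the expression table whose symbol begins with Psm, a letter from a to g and a digit, without Psmb8, Psmb9 and Psmb10. The rule gave 47 of 18268 genes. All 6 samples came from adult male C57BL/6 mice given dextran sulfate sodium (DSS) in drinking water over 7 days, which injures the gut lining and causes colitis. For 6 days 3 mice received BBR, a plant alkaloid, and the other 3 received SASP, an aminosalicylate prodrug used against colitis, both by gavage, each at a dose the study had chosen for that drug, so the doses differed. Neither healthy nor untreated colitis mice were analysed here, so each difference is between the drugs. It cannot be told from these samples which drug moved a gene. A gene said to fall or rise was lower or higher with BBR than with SASP. The labels give colorectal tissue for both groups, while the study's text speaks of rectal samples for BBR and colon samples for SASP mice, so a difference in gut site and the drug cannot be told apart. DSS colitis is a chemical injury model, and the samples were whole tissue with all its cell types. Each sample was taken as 1 mouse. The p-values of the gene fits set the difference between groups against the variation between these samples, moderated by a trend over all tested genes.

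The proteasome degrades proteins tagged with ubiquitin. Its 20S core is a barrel of stacked rings, with outer alpha rings that gate the channel and inner beta rings that hold the proteolytic sites. The 19S regulatory particle caps the barrel, and its base and lid bind ubiquitinated proteins, remove the ubiquitin and thread the chain inward with a ring of ATPases. Other caps, such as the PA28 complexes, open the gate without ATP. Under interferon the catalytic subunits Psmb5, Psmb6 and Psmb7 are replaced in new particles by Psmb8, Psmb9 and Psmb10, which forms the immunoproteasome known for cutting peptides for antigen presentation.

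Levels are given as FPKM (sequenced fragments scaled for transcript length and library size), and differences as log2 fold changes of log2(FPKM + 1), BBR minus SASP, from limma over all 12072 genes with at least 1 FPKM in at least 3 samples. Calls had a Benjamini-Hochberg adjusted p under 0.05 over all these genes. From 11518 to 12307 genes reached 1 FPKM per sample, and an approximate depth of 16400000 to 18200000 reads per sample was estimated from the smallest values. Across genes, BBR mouse 3 had the lowest mean correlation of log2 values with its own group, 0.951 against 0.968 to 0.989 for the other mice. Colon epithelium was present in all samples, with a summed level of its 10 markers between 8606 and 11447 FPKM and none of them at 0.

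In colitis mice receiving BBR a share of the proteasome genes, spread over the 20S core, the 19S particle, the chaperones and the activators, was lower than in those receiving SASP. Of the 47 members 45 were tested, 16 fell and 0 rose at the adjusted threshold. Among all tested genes 5.04% were called lower and 3.82% higher at that threshold. At an unadjusted p under 0.05, 36 members were lower and 0 higher. Of all 12072 tested genes, 1613 were lower and 2224 higher at an unadjusted p of at most 0.05. By sign alone 44 of the 45 were lower, and between 41 and 45 in the other fits with 45 members. Of all tested genes 39.2% were lower by sign in the main fit. The median log2 fold change of the members was -0.41, and that of all tested genes was 0.10. The mean SASP level was 1.34 times the mean BBR level for the median member. In 37 members all BBR values lay below all SASP values, an arrangement found in 16.6% of tested genes, and in 0 members did all BBR values lie above, against 21.3%. The summed FPKM of the 47 members was 2456, 2409 and 2480 in BBR mice 1, 2 and 3 and 4077, 3198 and 3678 in SASP mice 1, 2 and 3. The BBR sums were close together, while the SASP sums spread widely and all lay above them.

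**Figure D1:**
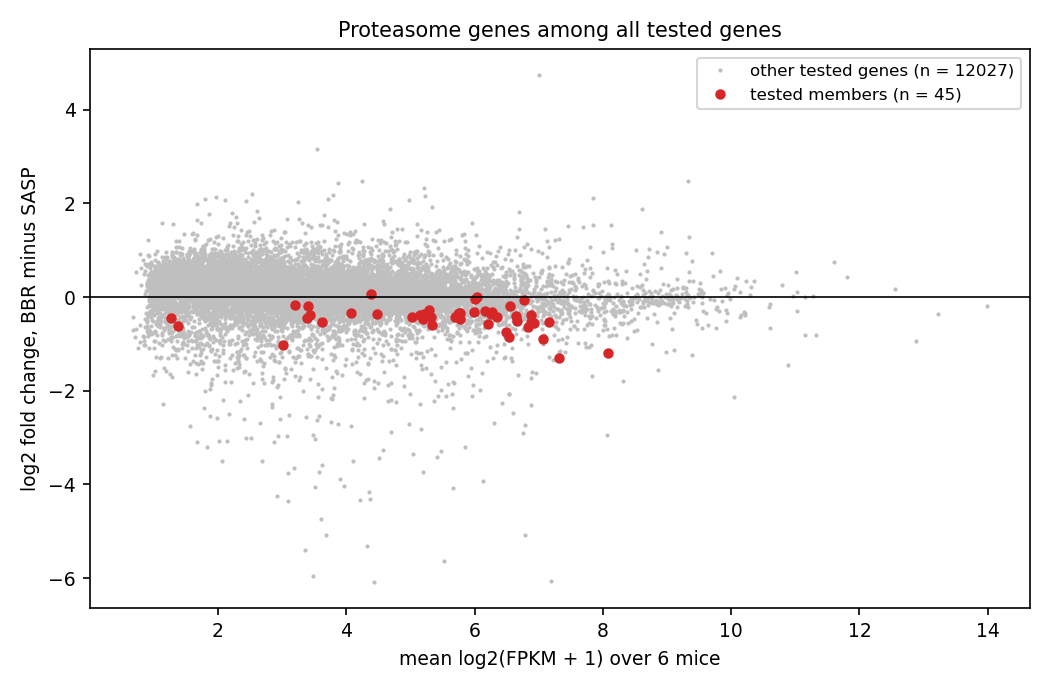
Log2 fold change (BBR minus SASP) against mean log2(FPKM + 1) over 6 mice, for the 45 tested members (red) and all other tested genes (grey). In this fit all members except Psmd5 lie below 0, with Psmd4, Psmb1 and Psmd8 close to it and of a sign that turned in other fits. Psme1 at -1.31 is the lowest.

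Leaving out 1 mouse changed the number of calls more than the direction, and in most of these fits calls fell over the whole table. Without BBR mouse 1, SASP mouse 1 or SASP mouse 3 the adjusted calls dropped to 0. At an unadjusted p under 0.05, 33, 33 and 30 members were lower in those fits. The matching counts over all tested genes were not computed, so these counts have no background to be set against. The adjusted calls numbered 2 without BBR mouse 2, 10 without SASP mouse 2 and 32 without BBR mouse 3. In all fits without 1 mouse the members' median stayed between -0.43 and -0.39, and 43 or 44 members were lower by sign. The median of all tested genes lay between 0.049 and 0.158 in these fits, and their share lower by sign was not computed. Over all tested genes the share called lower moved from 5.04% to 11.5% without BBR mouse 3, and to between 0.378% and 2.55% without any 1 of the other mice.

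Markers of other cell types were summed in the same mice. The 8 smooth muscle markers summed to 2863, 3006 and 6744 FPKM with BBR against 749, 2296 and 1703 FPKM with SASP, and 0 of the 8 were called (lowest limma adjusted p = 0.0693). The 10 leukocyte markers summed to 104, 130 and 80.0 FPKM with BBR against 185, 139 and 170 FPKM with SASP, and 0 of the 8 tested were called (lowest adjusted p = 0.0716), with overlapping groups in 3. The 7 fibroblast markers ranged from 220 to 314 FPKM in BBR and from 109 to 178 FPKM in SASP mice, and 3 of them rose under BBR at the threshold. Of 8 proliferation markers 5 fell under BBR, with sums of 104, 112 and 66.8 FPKM with BBR against 272, 243 and 204 FPKM with SASP. Over all tested genes 3.82% were called higher and 5.04% lower. Among the 10 epithelial markers 1 rose and 1 fell. Cdx2, an intestinal transcription factor, averaged 17.9 ± 5.58 FPKM with BBR against 5.85 ± 2.88 FPKM with SASP (SD, n = 3 each), a difference of 1.496 on the log2 scale (limma adjusted p = 0.0422). Vil1, a microvillus protein, measured 266, 247 and 252 FPKM with BBR against 402, 349 and 371 FPKM with SASP (-0.55, adjusted p = 0.0327), a log2 fold change within the range of the proteasome members. Car1 and Krt20, markers of mature colonocytes, were not called, with non-overlapping groups and values of 2.48 and -1.18 (adjusted p = 0.0950 and 0.0613). No marker of these lists was at 0 in any mouse. BBR mouse 3, with the highest smooth muscle sum, had a proteasome sum close to those of the other BBR mice. SASP mouse 1 had the lowest smooth muscle and fibroblast sums and the highest proteasome sum of the SASP mice, and SASP mouse 2 had the reverse. The leukocyte sums ordered the SASP mice as the proteasome sums did, and the BBR mice in the opposite order. The proliferation sums did not order the SASP mice as the proteasome sums did, being lowest in SASP mouse 3, and they ordered the BBR mice in the opposite order. In tissue of mixed cells, fewer cells of a type and less RNA per cell cannot be told apart, and the part of cell composition in the proteasome difference was not tested.

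Promoters were examined because many members moved together. RefSeq windows of 300 bases on GRCm38.p6, from 250 bases before to 50 bases after the transcript start, were available for 39 of the 47 members, 14 of them among the 16 called. The windows below belong to 5 of the 6 members with the largest falls. In each, capitals mark only the motif named for it, and other motifs searched for are left unmarked. Psme2, the other of these, has overlapping windows without the interferon element and is not shown. In the windows of Psme1 and Psmg4 the capitals mark the interferon-stimulated response element core (GAAA, NN, GAAA on either strand). In those of Psma5 and Psma4 they mark a loose form of the antioxidant response element core (TGANNNNGC on either strand). The stricter core fixes C as the letter after TGA, while every stretch marked here reads TGAG. The loose form is called the antioxidant pattern below. In that of Psma1 they mark CCAAT boxes on both strands.
Psme1, chr14:55578244-55578543, plus strand: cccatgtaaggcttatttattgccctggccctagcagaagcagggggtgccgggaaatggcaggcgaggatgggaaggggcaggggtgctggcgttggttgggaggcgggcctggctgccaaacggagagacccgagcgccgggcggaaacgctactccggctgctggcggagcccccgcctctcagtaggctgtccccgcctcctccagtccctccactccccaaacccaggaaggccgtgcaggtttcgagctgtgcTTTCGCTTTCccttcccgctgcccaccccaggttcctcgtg
Psmg4, chr13:34162714-34163013, plus strand: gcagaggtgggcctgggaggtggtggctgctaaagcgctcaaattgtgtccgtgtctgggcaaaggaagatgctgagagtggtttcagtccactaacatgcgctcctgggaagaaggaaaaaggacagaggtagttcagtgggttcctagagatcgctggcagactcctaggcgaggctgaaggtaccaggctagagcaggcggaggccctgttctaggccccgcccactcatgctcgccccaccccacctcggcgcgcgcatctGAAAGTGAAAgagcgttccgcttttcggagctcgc
Psma5, chr3:108256676-108256975, plus strand: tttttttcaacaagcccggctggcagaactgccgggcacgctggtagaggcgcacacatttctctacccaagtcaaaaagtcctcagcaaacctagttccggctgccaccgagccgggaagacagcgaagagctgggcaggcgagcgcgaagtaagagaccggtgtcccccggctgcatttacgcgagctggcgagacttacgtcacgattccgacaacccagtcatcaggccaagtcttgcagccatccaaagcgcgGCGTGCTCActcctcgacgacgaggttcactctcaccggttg
Psma4, chr9:54950609-54950908, plus strand: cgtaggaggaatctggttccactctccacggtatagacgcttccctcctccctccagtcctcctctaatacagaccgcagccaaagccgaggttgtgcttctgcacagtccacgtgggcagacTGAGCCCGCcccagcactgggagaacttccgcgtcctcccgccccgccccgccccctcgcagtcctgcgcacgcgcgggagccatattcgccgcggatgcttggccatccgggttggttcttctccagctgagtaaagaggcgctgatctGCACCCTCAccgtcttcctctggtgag
Psma1, chr7:114276067-114276366, minus strand: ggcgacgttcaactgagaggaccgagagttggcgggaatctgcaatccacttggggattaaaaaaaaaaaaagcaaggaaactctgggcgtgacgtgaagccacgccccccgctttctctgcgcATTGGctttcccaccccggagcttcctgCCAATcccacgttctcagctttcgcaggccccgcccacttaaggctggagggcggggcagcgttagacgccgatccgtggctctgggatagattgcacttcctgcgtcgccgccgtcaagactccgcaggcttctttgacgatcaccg

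The interferon element began at letter 260 of the Psme1 window and at letter 266 of the Psmg4 window, just after the transcript start in both. It was found in 5 of 39 members (12.8%) and in 4.0% of 27018 genes with a window. Besides Psme1 and Psmg4, 3 uncalled members held it, Psmb3, Psmd4 and Psmd9, and the groups of Psmd4 and Psmd9 overlapped. Outside the members, the windows of Psmb8, Psmb9 and Psmb10 did not hold it, and that of Psmb8 held the gamma-activated site described below. The loose antioxidant pattern was held by 22 of 39 members (56.4%) and by 45.1% of all genes, with 8 of 14 called and 13 of 24 uncalled members. GC boxes (GGGCGG) were held by 56.4% of members and 38.2% of all genes, in 10 of 14 called and 12 of 24 uncalled members. CCAAT boxes were held by 35.9% of members and 41.1% of all genes. The gamma-activated site (TTCNNNGAA) was held by 2 of 39 members and 9.55% of all genes, and the E-box (CACGTG) by 3 of 39 members and 8.09% of all genes. Both strands were searched, motifs could overlap, and a gene counted if any of its windows held the letters. Of the printed windows, that of Psmg4 also holds the antioxidant pattern, partly over the interferon letters, and a GC box. Those of Psme1, Psma4 and Psma1 hold GC boxes, and that of Psma4 an E-box. The Psme2 windows hold the antioxidant pattern and GC boxes. The printed windows therefore do not sort these members into separate promoter classes. These counts describe the letters in the windows and not binding.

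In the alpha ring of the core nearly all genes fell. Of its 7 tested genes 6 fell, 7 had non-overlapping groups, and the median log2 fold change was -0.64. Over all tested genes 5.04% were called lower, and 16.6% had all BBR values below all SASP values. These genes encode the structural subunits of the outer rings, which form the gate. Psma1 (Gene ID 26440) measured 94.3, 89.8 and 107 FPKM with BBR against 203, 148 and 200 FPKM with SASP (log2 fold change -0.90, SE 0.15, adjusted p = 0.0217 by limma). Psma5 (26442), with the antioxidant pattern shown above, measured 70.3, 63.0 and 69.8 FPKM with BBR against 138, 108 and 126 FPKM with SASP (-0.86, SE 0.12, adjusted p = 0.0138), the smallest p among the members. Psma4 (26441) measured 70.4, 69.7 and 66.5 FPKM with BBR against 132, 102 and 115 FPKM with SASP (-0.74, SE 0.12, adjusted p = 0.0187). In each of these genes the BBR mice lay closer together than the SASP mice, and SASP mouse 2 was the lowest of the SASP mice, although still above every BBR mouse. Psma3, Psma2 and Psma6 fell by 0.64, 0.52 and 0.41 on the log2 scale (adjusted p = 0.0205, 0.0350 and 0.0489). Psma7 averaged 99.6 ± 2.90 FPKM with BBR against 147 ± 27.7 FPKM with SASP (SD, n = 3 each) and was not called (-0.54, adjusted p = 0.0637). Among SASP mice it ranged from 119 to 174 FPKM. Psma8, the testis counterpart of Psma7, was listed at 0.03 to 0.17 FPKM in all mice and was not tested. On its 1918-base transcript 1 read would be worth about 0.032 FPKM at the estimated depth.

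**Figure D2:**
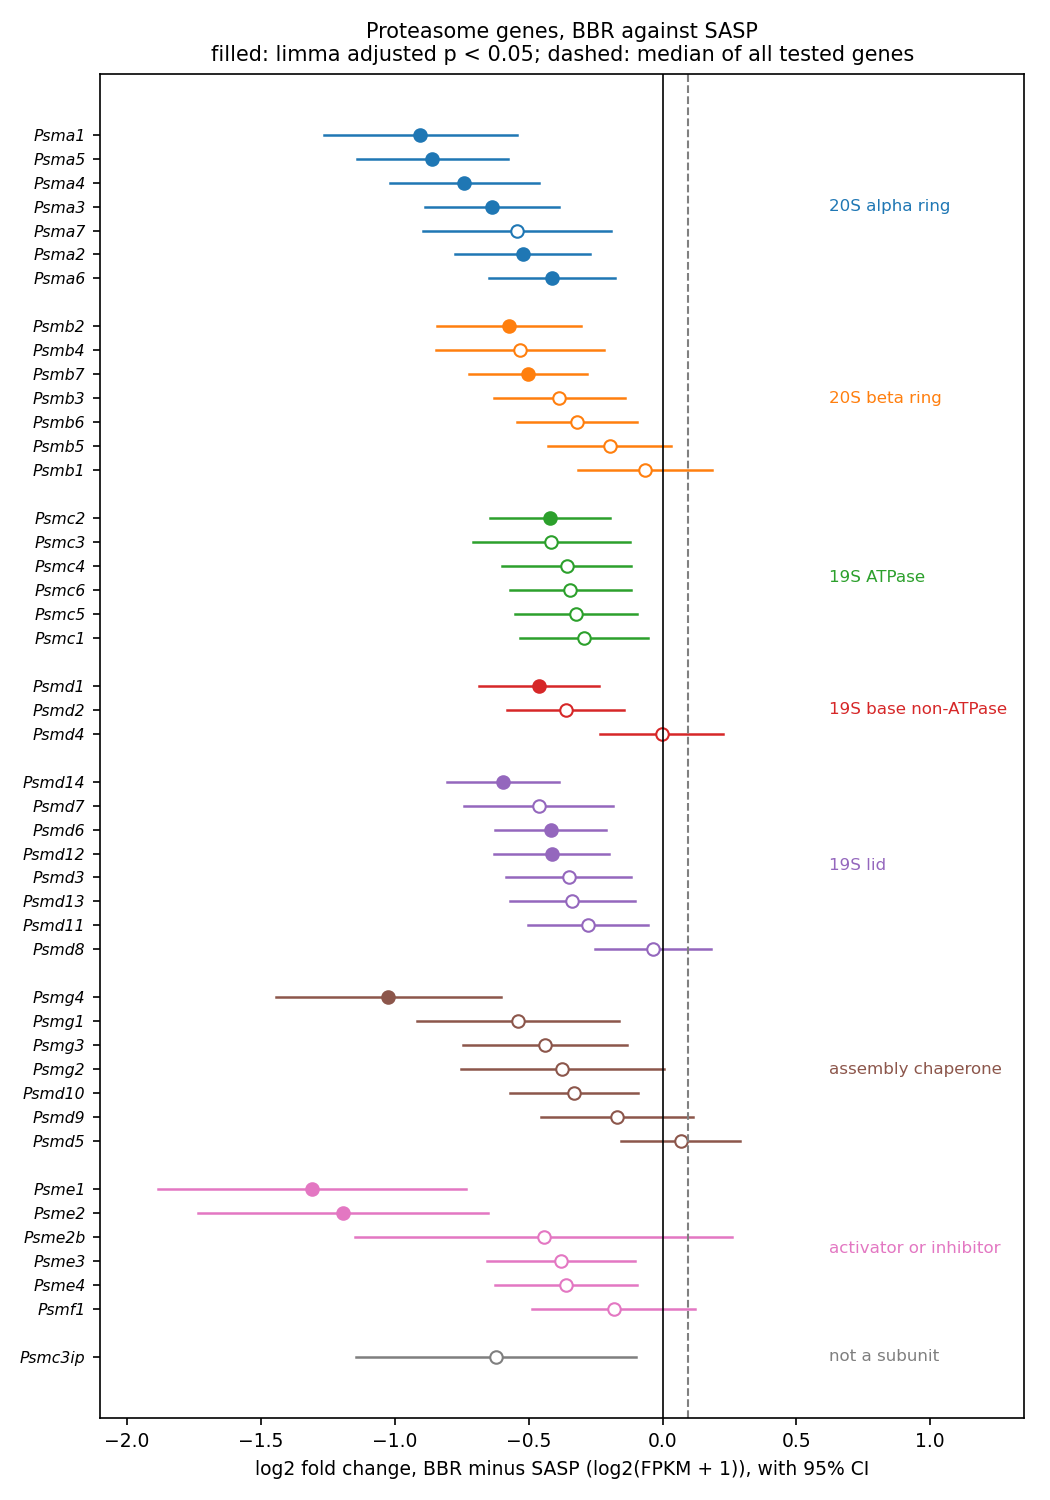
Log2 fold change (BBR minus SASP) of each tested member with its 95% confidence interval from limma, grouped by role. Filled points passed the adjusted threshold, and the dashed line is the median of all tested genes, 0.10. The alpha ring, with a median of -0.64, lies mostly further left than the beta ring and the ATPases.

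In the beta ring fewer genes passed. Of 7 tested genes 2 fell (5.04% of all tested genes did), 6 had non-overlapping groups with BBR lower (16.6% of all), and the median was -0.39. Psmb7, the catalytic subunit with trypsin-like activity, measured 84.3, 85.4 and 83.5 FPKM with BBR against 129, 115 and 116 FPKM with SASP (-0.50, SE 0.093, limma adjusted p = 0.0266). Psmb2, a structural subunit, fell by 0.57 on the log2 scale (adjusted p = 0.0324). Psmb6, the subunit with caspase-like activity, measured 68.1, 69.5 and 66.8 FPKM with BBR against 91.1, 79.0 and 86.2 FPKM with SASP and was not called (-0.32, adjusted p = 0.0755). Psmb5, the subunit with chymotrypsin-like activity, measured 89.6, 85.6 and 86.1 FPKM with BBR against 109, 96.6 and 95.4 FPKM with SASP (-0.20, adjusted p = 0.203). In both of these genes the groups did not overlap, but the gap between them was small. Psmb4 and Psmb3 had values of -0.53 and -0.39 (adjusted p = 0.0529 and 0.0628). Psmb1 measured 112, 106 and 98.1 FPKM with BBR against 119, 103 and 109 FPKM with SASP, and the groups overlapped (-0.06, 95% confidence interval -0.32 to 0.19, adjusted p = 0.695). Its sign turned with quantile normalization and with array weights. Psmb11, the thymus-specific catalytic subunit, was listed at 0.18 to 0.41 FPKM and was not tested.

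Within a mouse the subunits of a ring had similar levels per length. The highest of the 7 alpha genes was 1.45 to 1.76 times the lowest, the highest of the beta genes Psmb1 to Psmb7 was 1.87 to 2.17 times the lowest, and the highest of the 6 ATPase genes was 1.38 to 1.79 times the lowest. The ratios of BBR and SASP mice overlapped in all 3 groups of genes. The summed alpha ring level was 1.60 times higher in SASP than in BBR mice, and that of the beta ring 1.30 times.

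The inducible subunits that replace Psmb5, Psmb6 and Psmb7 had larger log2 fold changes than these. Psmb9 measured 19.4, 17.8 and 16.9 FPKM with BBR against 217, 115 and 207 FPKM with SASP (-3.20, limma adjusted p = 0.00179), while Psmb8 and Psmb10 fell by 2.26 and 1.62 on the log2 scale (adjusted p = 0.0186 and 0.00988). Per mouse, the FPKM ratio of Psmb8 to Psmb5 was 0.475, 0.366 and 0.487 in BBR and 2.42, 1.06 and 2.54 in SASP mice. The ratio of Psmb9 to Psmb6 was 0.284, 0.256 and 0.253 in BBR and 2.38, 1.46 and 2.398 in SASP mice. The ratio of Psmb10 to Psmb7 was 0.868, 0.842 and 0.786 in BBR and 1.996, 1.36 and 2.21 in SASP mice. In all BBR mice the constitutive transcript was thus the more abundant of each pair, and in all SASP mice the inducible transcript was. The mean log2 ratios differed by -2.09, -2.94 and -1.13, with an exact permutation p of 0.10 for each of the 3 ratios (two-sided, 0.10 after Benjamini-Hochberg adjustment), the smallest that 3 against 3 mice allow.

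**Figure D3:**
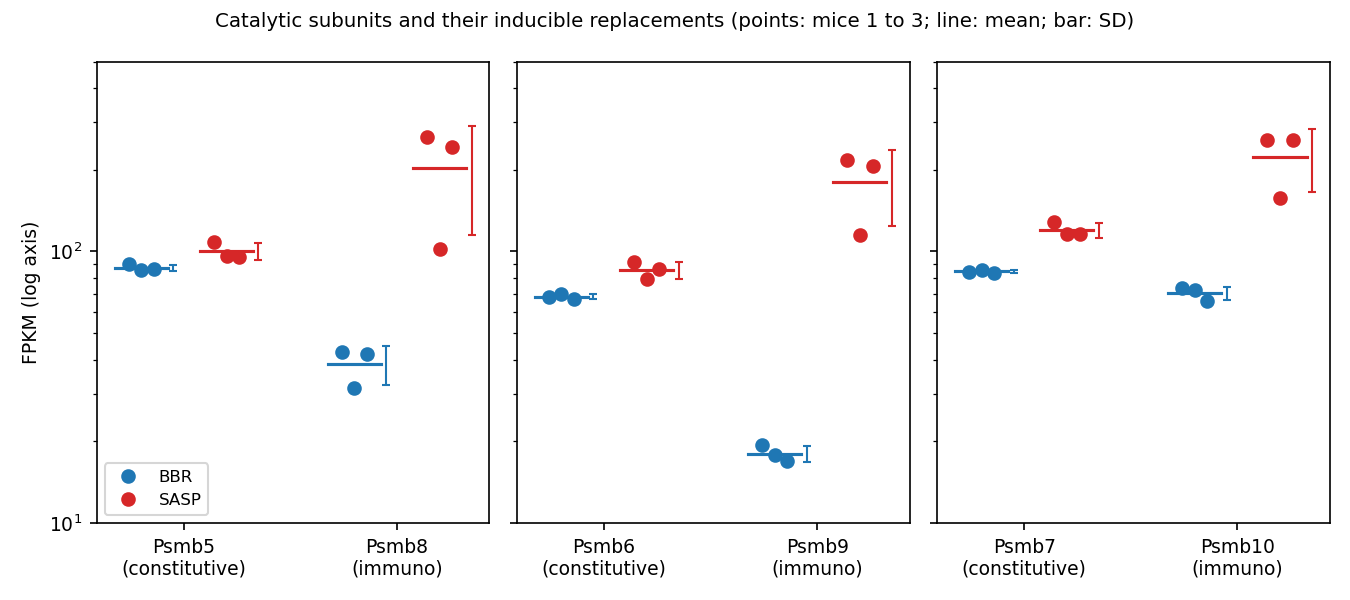
FPKM on a log axis of the constitutive catalytic subunits Psmb5, Psmb6 and Psmb7 and of the inducible subunits Psmb8, Psmb9 and Psmb10 that replace them, per mouse, with the mean (line) and SD (bar) of 3 BBR (blue) and 3 SASP (red) mice. The inducible subunits lie below their partners in BBR mice and above them in SASP mice.

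In the 19S particle the median difference was smaller than in the alpha ring, with no test of that contrast. All 17 tested genes had negative values, 5 fell (5.04% of all tested genes did), 15 had non-overlapping groups with BBR lower (16.6% of all), and the median was -0.36. Among the 6 ATPases, which unfold the substrate, values lay within a narrow band from -0.42 to -0.29, and all 6 had non-overlapping groups. Psmc2 measured 41.3, 43.1 and 47.1 FPKM with BBR against 60.8, 56.8 and 59.3 FPKM with SASP (-0.42, SE 0.095, limma adjusted p = 0.0430). It alone passed among the ATPases, and the other 5 had adjusted p-values of 0.0656 to 0.103. Psmc1 had the smallest difference, at 63.9 ± 4.89 FPKM with BBR against 78.4 ± 4.11 FPKM with SASP (SD, n = 3 each).

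In the remainder of the 19S base, Psmd1, a large scaffold subunit, measured 28.9, 29.7 and 32.5 FPKM with BBR against 43.9, 40.5 and 42.0 FPKM with SASP (-0.46, SE 0.095, limma adjusted p = 0.0353). Psmd2, the other scaffold, had a value of -0.36 (adjusted p = 0.0560). Psmd4, a ubiquitin receptor, measured 65.1, 60.3 and 70.1 FPKM with BBR against 64.4, 67.8 and 63.3 FPKM with SASP. Its groups overlapped throughout, with a log2 fold change of -0.0031 (95% confidence interval -0.23 to 0.23, adjusted p = 0.986) and no stable sign.

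In the lid, Psmd14, the deubiquitinase that removes ubiquitin from the substrate, measured 30.9, 32.6 and 32.4 FPKM with BBR against 51.2, 47.7 and 47.7 FPKM with SASP (-0.60, SE 0.089, limma adjusted p = 0.0164). Each group lay within a narrow range, and the groups were far apart. The structural lid subunits Psmd6 and Psmd12 fell by 0.42 and 0.41 on the log2 scale (adjusted p = 0.0367 and 0.0407). Psmd7, the partner of Psmd14, measured 41.9, 42.6 and 53.4 FPKM with BBR against 64.3, 62.4 and 63.2 FPKM with SASP and was not called (-0.46, adjusted p = 0.0562). Its BBR mouse 3 value lay between the other BBR mice and the SASP mice. Psmd8 measured 65.9, 61.7 and 59.8 FPKM with BBR against 66.7, 63.0 and 62.3 FPKM with SASP, with overlapping groups (-0.04, 95% confidence interval -0.25 to 0.18, adjusted p = 0.806), and its sign turned with array weights.

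**Figure D4:**
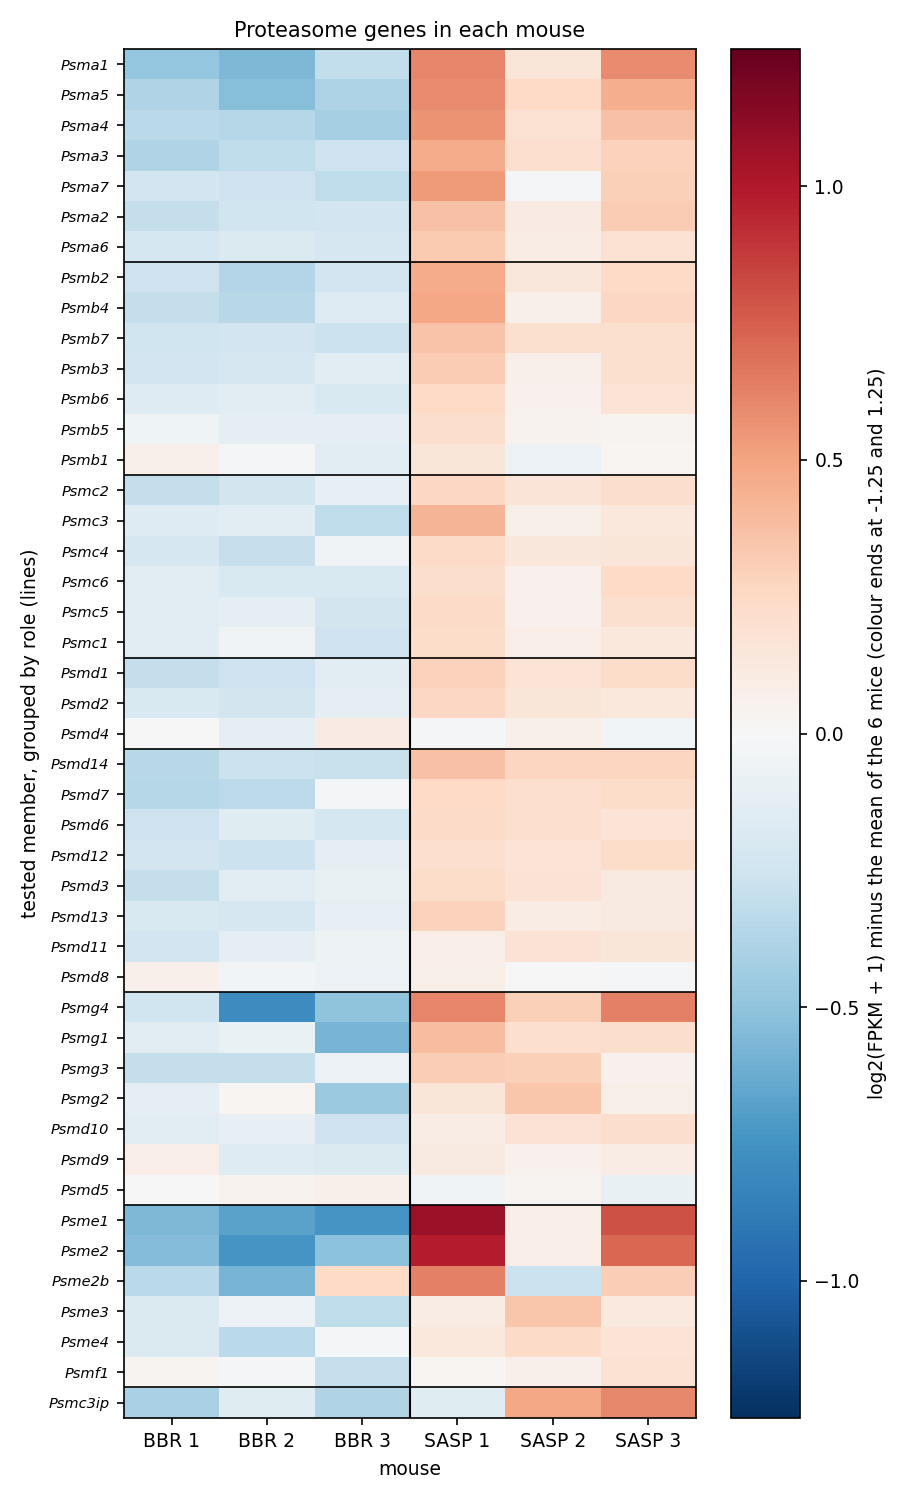
Log2(FPKM + 1) of each of the 45 tested members in each mouse, minus the gene's mean over 6 mice, grouped by role (horizontal lines). BBR mice are mostly blue (lower) and SASP mice mostly red (higher), with paler red in SASP mouse 2 for the 20S genes. Psmb1, Psmd4, Psmd8 and Psmd5 show little colour.

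The activators held the largest differences of all members. Psme1 and Psme2 encode the subunits of the PA28 cap that, like Psmb8, Psmb9 and Psmb10, is induced by interferon gamma, so they are not constitutive in the strict sense. Psme1 (19186), with the interferon element shown above, measured 107, 99.6 and 94.7 FPKM with BBR against 336, 168 and 277 FPKM with SASP (-1.31, SE 0.24, limma adjusted p = 0.0267). Psme2 (19188) measured 185, 161 and 188 FPKM with BBR against 534, 286 and 445 FPKM with SASP (-1.19, SE 0.23, adjusted p = 0.0291). In both genes SASP mouse 2 was far below the other SASP mice and still above every BBR mouse. Without these genes, Psme2b and Psmc3ip, the other 41 tested members had a median of -0.39, with 14 called lower. Psme2b, a near copy of Psme2, measured 0.91, 0.62 and 1.87 FPKM with BBR against 2.74, 1.00 and 1.99 FPKM with SASP (-0.44, adjusted p = 0.332), and the division of reads between both copies is uncertain. Psme3, which forms a separate nuclear PA28 cap, and Psme4, which encodes another nuclear activator, had values of -0.38 and -0.36 (adjusted p = 0.0807 and 0.0836). In both, the groups did not overlap. Psmf1, an inhibitor of the core, averaged 8.93 ± 1.14 FPKM with BBR against 10.2 ± 0.673 FPKM with SASP (SD, n = 3 each), with overlapping groups (-0.18, adjusted p = 0.355).

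Among 7 assembly chaperones 1 fell, against 5.04% of all tested genes. Psmg4, which with Psmg3 helps to build the alpha ring, measured 5.81, 3.68 and 4.72 FPKM with BBR against 11.4, 8.91 and 11.5 FPKM with SASP (-1.02, SE 0.18, limma adjusted p = 0.0234), the largest difference outside the PA28 genes. Its window holds both the interferon element and the loose antioxidant pattern. Psmg4 works as a pair with Psmg3. Its partner Psmg3 and the pair of Psmg1 and Psmg2 had values of -0.44, -0.54 and -0.37 (adjusted p = 0.0744, 0.0746 and 0.160), each with non-overlapping groups. The chaperones of the 19S base had values closer to 0. Psmd10 had a value of -0.33 (adjusted p = 0.0803) and Psmd9 of -0.17 (adjusted p = 0.354). Psmd5 was the 1 member with a positive value, at 19.8, 20.5 and 20.9 FPKM with BBR against 19.3, 20.5 and 18.6 FPKM with SASP (0.07, 95% confidence interval -0.15 to 0.29, adjusted p = 0.641), and this became -0.06 with median-ratio scaling. Psmc3ip matches the naming rule but encodes a partner of the recombination machinery, not a subunit. It measured 0.96, 1.34 and 1.01 FPKM with BBR against 1.34, 2.64 and 2.94 FPKM with SASP (-0.62, adjusted p = 0.111).

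Of the members without a call, 18 had adjusted p-values between 0.0529 and 0.0990, and 11 were above 0.10. The groups overlapped in 8 tested members, Psmb1, Psmd4, Psmd8, Psmd5, Psmd9, Psme2b, Psmf1 and Psmc3ip. SASP mouse 2 was the lowest SASP mouse in 66.7% of tested members and in 25.4% of all tested genes.

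Other genes of the ubiquitin-proteasome pathway had values in both directions. Of 30 such genes, all tested, 17 had negative and 13 positive values, 1 fell and 1 rose, and the median was -0.10. The called counts were near the 5.04% called lower and 3.82% called higher among all tested genes, of which 39.2% had negative values. Uchl5, a deubiquitinase bound to the 19S particle, measured 12.2, 12.6 and 10.7 FPKM with BBR against 19.7, 18.3 and 20.2 FPKM with SASP (-0.67, limma adjusted p = 0.0199). Stub1, a chaperone-linked ubiquitin ligase, measured 74.6, 70.3 and 70.5 FPKM with BBR against 51.7, 58.0 and 53.5 FPKM with SASP (0.40, adjusted p = 0.0466). These moved in opposite directions, each with non-overlapping groups. The intrinsic 19S subunits Adrm1, a ubiquitin receptor, and Sem1, a small lid subunit, which the naming rule does not take in, had overlapping groups and values of -0.15 and -0.17 (adjusted p = 0.371 and 0.358). Adrm1, Sem1, Pomp and Nfe2l1 were named after their values were seen. Pomp, the maturation factor of the core, measured 79.0, 78.2 and 97.0 FPKM with BBR against 167, 114 and 132 FPKM with SASP and just missed the threshold (-0.68, adjusted p = 0.0504). Nfe2l1, which encodes the transcription factor known to raise proteasome genes when the proteasome is impaired, measured 68.7, 78.8 and 60.7 FPKM with BBR against 70.4, 61.8 and 65.3 FPKM with SASP (0.07, adjusted p = 0.721). These are RNA levels, and the amount and activity of the encoded protein were not measured.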

How the data were processed

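RNA sequencing of colorectal tissue from 6 colitis mice, 3 receiving BBR and 3 receiving SASP, was analysed. According to the methods of the study and the submitters' processing notes, the authors aligned reads with Bowtie2 2.2.5, named mm9 as the genome build and calculated the deposited FPKM values with RSEM 1.2.12, rounded to 2 decimals. The annotation release is not given in the sources used here. The study's methods describe rRNA depletion and sequencing of DNA nanoballs, and the labels an Illumina kit. Tissue is called rectal for BBR mice and colon for SASP mice in the study's text, and colorectal for both in the labels. The methods name BBR but not SASP mice for sequencing, and whether both groups were prepared together is not given in the sources used here, so a gut site or preparation batch and the drug cannot be told apart. RSEM divides reads among similar genes.

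FPKM are not counts, so log2(FPKM + 1) was fitted with limma 3.58.1 (R 4.3.3), with a mean-variance trend, for 12072 genes with at least 1 FPKM in at least 3 samples. P-values were two-sided and Benjamini-Hochberg adjusted over all these genes (threshold 0.05). In simulated data with 200 changed genes among 12072, 53.0% were recovered and 7.02% of calls were false. With no changed gene, 0 passed. These values pool all changed genes, so recovery of differences as small as those of most members is not known from them. How calls behave when many genes of 1 mouse shift together was not tested.

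Groups came from the treatment label, and mouse numbers follow accession order and pair no mice. Members and gene lists were chosen with earlier results of these data known. Named genes were the members past the threshold, the extremes of each role, the catalytic pairs, activators and inhibitors, and other ubiquitin-proteasome genes past the threshold. Psma7, Psmb3, Psmb4, Psmd2, Psmd7, Psmd9, Psmd10, Psmg1, Psmg2, Psmg3, Adrm1, Sem1, Pomp, Nfe2l1 and the epithelial markers were added after their values were seen. Depth was approximated from genes above 0 in 1 sample only, read as 1 read each, with GENCODE M21 transcript lengths. Promoter windows were RefSeq sequences of GRCm38.p6, matched by Gene ID, and none of the deposited values depends on their coordinates. Ratios of deposited FPKM were compared with an exact permutation test. Alternatives were another pseudocount, other filters, quantile and median-ratio normalization, no trend, array weights, the study's unadjusted threshold and leaving out each mouse.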

Additional observations from a re-analysis of the deposited data

How the results depend on the processing

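Over all alternatives 0 members were called higher. The 16 members called lower became 26 with median-ratio scaling, 38 with array quality weights and 36 at an unadjusted p of at most 0.05. Calls rose over the whole table in these settings. Of all tested genes 5.04% were called lower in the main fit, 9.83% with median-ratio scaling and 20.6% with array weights. Array weights also called 4636 genes higher, and 1613 genes were lower at the unadjusted threshold. The members' count stayed between 12 and 22 with another pseudocount, no filter, a mean of at least 5 FPKM, quantile normalization and no mean-variance trend. The share of all tested genes called lower was 2.04% to 8.23% in those settings. Leaving out 1 mouse gave 0 to 32. The members' median of -0.41 became -0.54 with median-ratio scaling, which moved the median of all tested genes by -0.12. Relative to that median the members were at -0.51 and -0.52. Without 1 mouse the members' median ranged from -0.43 to -0.39. Psmd4 turned to 0.029 with quantile normalization and 0.016 with array weights, and ranged from -0.056 to 0.051 without single mice. Psmb1 turned to 0.010 and 0.023 with the same settings, Psmd8 to 0.055 with array weights and Psmd5 to -0.060 with median-ratio scaling, none of them past the threshold. The calls of Psma1, Psma2, Psma3, Psma4, Psme1 and Psmg4 were each lost in 4 of the 13 alternatives, in which SASP mouse 1, SASP mouse 3, BBR mouse 1 or BBR mouse 2 was left out, and those of Psma5 and Psmd14 in 3, which did not include the fit without BBR mouse 2. The calls of the other 8 were lost in 5 to 8 alternatives. Outside the members, the call of Stub1 was lost in 8, that of Psmb8 in 4, that of Uchl5 in 3, that of Psmb10 in 2 and that of Psmb9 in 0. Each called member kept its sign in all alternatives. The ratio differences ranged from -2.50 to -1.87 for Psmb8 to Psmb5, from -3.18 to -2.82 for Psmb9 to Psmb6 and from -1.34 to -0.99 for Psmb10 to Psmb7 without single mice. The cause of these shifts was not tested. At the estimated depth 1 read was worth about 0.051 FPKM for Psma1 and 0.11 FPKM for Psmg4, and this approximate counting error was not added to the errors given. No paired analysis was possible because mouse numbers follow accession order and the groups share none in the labels.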
